A study of Mus musculus with 6 samples.

Results

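The S100 genes encode small calcium-binding proteins, and 9 of them, *S100a1*, *S100a4*, *S100a6*, *S100a10*, *S100a11*, *S100a13*, *S100a14*, *S100a16* and *S100g*, were followed by symbol through the read counts of 56884 genes in 6 libraries. The tables hold 18 protein-coding S100 genes in all, and the other 9 are accounted for below. The libraries were made from cells of murine organoids, self-organising cultures of small intestinal epithelium, after sorting for Lgr5-GFP, a fluorescent reporter of intestinal stem cells. All organoids carried Villin-CreERT2, Lgr5-EGFP-IRES-CreERT2 and Ythdf2fl/fl. CreERT2 is a recombinase that 4-hydroxytamoxifen (4-OHT) activates, expressed here from the villin promoter of the intestinal epithelium and from the *Lgr5* locus, and the floxed gene encodes the m6A reader YTHDF2. Cultures received 4-OHT (0.5 µM in the series text) or its vehicle ethanol (EtOH), and cells were sorted on day 4 or day 6. There were 2 libraries for each treatment at day 6 and 1 for each at day 4, and the labels do not say whether the day 6 replicates came from separate cultures or animals, so p-values measure the spread between these libraries only, which may be technical.

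S100 proteins pair EF-hand calcium-binding loops in a short chain and mostly work as dimers that change shape when calcium binds and then grip a partner protein. *S100a10* is the exception that no longer binds calcium and instead holds annexin A2 at membranes. *S100g*, calbindin-D9k, is a monomer that carries calcium through the absorptive cells of the gut and is a classic target of vitamin D, while *S100a6* is known as a gene of proliferating, injured and fetal-type epithelium. *S100a4* is typical of fibroblasts and leukocytes, and *S100a8* and *S100a9* of neutrophils.

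Library totals ran from 14345379 to 21461835 gene counts, and levels are given as CPM, counts scaled to a common library size. *Ythdf2*, the floxed gene, was read first as a check of the labels. It stood at 82.8 and 76.1 CPM with EtOH and at 208 and 204 CPM with 4-OHT at day 6, and at 76.0 CPM with EtOH and 167 CPM with 4-OHT at day 4. This is opposite to a loss of transcript, and counts per gene do not show the floxed part, so every direction below is that of libraries labelled 4-OHT against libraries labelled EtOH. The sorted cells carried markers of their gate, with *Lgr5* between 209 and 368 CPM and *Olfm4* between 864 and 3304 CPM, while the stem cell gene *Tnfrsf19* was at 2.28 to 8.14 CPM. The libraries also held RNA of other cell types, such as the Paneth cell gene *Lyz1* (110 to 1820 CPM) and the goblet cell gene *Fcgbp* (1320 to 2434 CPM).

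8 of the 9 members lie on chromosome 3 and *S100g* lies on chromosome X (161744988 to 161747617, minus strand; all positions are from the GENCODE M39 annotation of GRCm39). *S100a13*, *S100a1*, *S100a14*, *S100a16*, *S100a4* and *S100a6* lie in this order, with other S100 genes among them, between 90416091 and 90535843. *S100a11* (93414382 to 93435293) and *S100a10* (93462213 to 93474510) lie farther along. *S100a1* is on the minus strand, inside the span of *S100a13* on the plus strand, and 89.2% of the exon bases of *S100a1* and 57.5% of those of *S100a13* are shared with another gene. The files list ambiguous reads apart from the gene counts, at 5.28% to 5.88% of entries, and the strand setting was not stated, so the counts of this pair are uncertain. For *S100a4*, 33.3% of the exon bases are shared with *Gm42674*, and for *S100a6*, *S100a10*, *S100a11*, *S100a14*, *S100a16* and *S100g* no exon base is shared.

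Promoter windows of 300 bases, 250 before and 50 after the start site, were found in RefSeq (build GRCm38.p6) for 7 members, all but *S100a10* and *S100a14*, and each matched GRCm39 exactly once. Those of *S100a6* (chr3:90519951-90520250, plus strand), *S100a1* (chr3:90421588-90421887, minus strand) and *S100a11* (chr3:93427553-93427852, plus strand) are printed because these members rose at day 6 or over both days, as described below. They are written 5′ to 3′, with capitals for 4 motifs searched on both strands. The AP-1 motif was searched as TGANTCA. The motif of the TEAD factors was searched as GGAATG. The core element that TBP binds was searched as TATAAA. The element that NF-Y binds was searched as CCAAT.
S100a6: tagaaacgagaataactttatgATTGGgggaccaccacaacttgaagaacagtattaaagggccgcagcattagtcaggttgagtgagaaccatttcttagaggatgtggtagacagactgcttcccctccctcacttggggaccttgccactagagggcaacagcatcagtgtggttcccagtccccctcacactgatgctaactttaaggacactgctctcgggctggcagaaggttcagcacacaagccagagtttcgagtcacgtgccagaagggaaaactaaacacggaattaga
S100a1: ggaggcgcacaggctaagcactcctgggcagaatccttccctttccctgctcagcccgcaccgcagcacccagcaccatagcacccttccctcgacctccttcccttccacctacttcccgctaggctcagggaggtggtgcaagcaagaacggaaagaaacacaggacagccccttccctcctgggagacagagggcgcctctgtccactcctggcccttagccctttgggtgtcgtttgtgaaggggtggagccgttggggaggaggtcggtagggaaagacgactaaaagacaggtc
S100a11: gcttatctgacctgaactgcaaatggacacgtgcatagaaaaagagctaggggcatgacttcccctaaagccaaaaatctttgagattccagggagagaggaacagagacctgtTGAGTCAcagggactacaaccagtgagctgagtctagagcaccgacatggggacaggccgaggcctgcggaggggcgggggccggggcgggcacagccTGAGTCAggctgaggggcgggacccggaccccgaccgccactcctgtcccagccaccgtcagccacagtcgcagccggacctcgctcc
The capitals mark 1 NF-Y match in the *S100a6* window, 228 bases before the start, on the other strand, and 2 AP-1 matches in the *S100a11* window, 136 and 38 bases before it. These distances are from the RefSeq start sites, 90520201 for *S100a6* and 93427803 for *S100a11*. The GENCODE canonical transcripts of these genes start at 90520140 and 93427677, so the AP-1 match nearer the RefSeq start of *S100a11* lies after its GENCODE start. Another motif, GGGCGG for the GC box, is left in lower case and has 3 matches in the *S100a11* window that do not overlap the AP-1 matches. No match to any of the 5 motifs lies in the *S100a1* window. An AP-1 match was present in 7.81% of all 32851 promoter windows of this length, a TEAD match in 14.7%, a match to the TBP element in 13.6%, to the NF-Y element in 37.4% and to the GC box in 35.7%. Among the windows not printed, those of *S100a4* and *S100g* held a match to the TBP element and 1 of the 2 *S100a16* windows an AP-1 match. The windows of *S100a1* and *S100a13* share 204 bases, with RefSeq start sites 105 bases apart that point away from each other. The GENCODE canonical transcripts start elsewhere, at 90421848 for *S100a1* and 90419191 for *S100a13*, so that those 2 transcripts run toward each other. The windows held 41.0% (*S100g*) to 61.7% (*S100a11*) G and C, with 49.3% for *S100a6* and 61.0% for *S100a1*.

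The first question was which S100 genes the sorted cells express. 8 members had more than 1 CPM in all 6 libraries, and *S100a4* did not. *S100a4* had 0 counts in 5 libraries and 2 counts in the day 4 EtOH library, where a count of 0 allows up to 3 counts, or 0.140 to 0.209 CPM depending on the library (counting error only). Markers of the cells known for *S100a4* were near 0 as well. In the list of 9 fibroblast and smooth muscle genes, *Lum* had no count in any library and *Col1a2*, *Col3a1* and *Dcn* at most 0.136 CPM. *Vim* was the 1 gene of that list above 1 CPM, at 3.33 to 12.3 CPM. The leukocyte gene *Ptprc* was at most 0.103 CPM, and 3 of the 9 leukocyte genes reached 1 CPM in any library, *Cd68*, *Itgam* and *Ly6g*. The neutrophil genes *S100a8* and *S100a9* had 0 counts and at most 1 count in a library.

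To compare levels between genes, CPM were divided by the length of the canonical transcript in kilobases. The order between genes depends on that length. Coding transcripts ran from 852 to 5019 bases for *S100a10*, 459 to 2328 for *S100a11*, 422 to 3517 for *S100a16* and 382 to 1320 for *S100a6*. Which transcripts the cells used was not tested. In the day 6 EtOH libraries *S100a16* was highest at 36.8 ± 4.55 CPM per kb (SD, n = 2 here and for each such value), followed by *S100a10* at 33.6 ± 1.13 and *S100a11* at 30.4 ± 1.17. *S100a16* and *S100a10* did not differ beyond their spread. *S100a14*, at 22.0 ± 3.07 CPM per kb, came next. *S100g* (10.9 ± 3.79), *S100a6* (10.9 ± 3.65) and *S100a1* (9.18 ± 0.492 CPM per kb) lay together within their spread. *S100a13* was lowest at 0.588 ± 0.135 CPM per kb, but its canonical transcript of 4412 bases is long for the gene, and its level was 3.17 CPM per kb with the median length of its coding transcripts, 819 bases.

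The order was different in the day 6 libraries labelled 4-OHT. *S100a6* moved from the sixth place to the first, at 48.2 ± 15.4 CPM per kb, close to *S100a10* (46.0 and 48.8 CPM per kb in the replicates, mean 47.4) and *S100a11* (44.1 ± 5.59), from which it did not differ beyond its spread. The first place depends on the division by length. It was kept with the median length of coding transcripts, at 48.7 CPM per kb against 47.4 for *S100a10* and 46.5 for *S100a11*. In CPM not divided by length, the mean of *S100a6* was 37.6, below 162 for *S100a10* and 103 for *S100a11*. *S100a16* stood at 35.5 ± 2.32 CPM per kb, in the fifth place. At day 4 *S100a6* likewise went from the fifth place with EtOH (10.5 CPM per kb) to the first with 4-OHT (53.5 CPM per kb). The plot of levels per transcript length shows this shift of *S100a6* against a group of 4 members, *S100a10*, *S100a11*, *S100a14* and *S100a16*, that were the highest with EtOH.

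**Figure D1:**
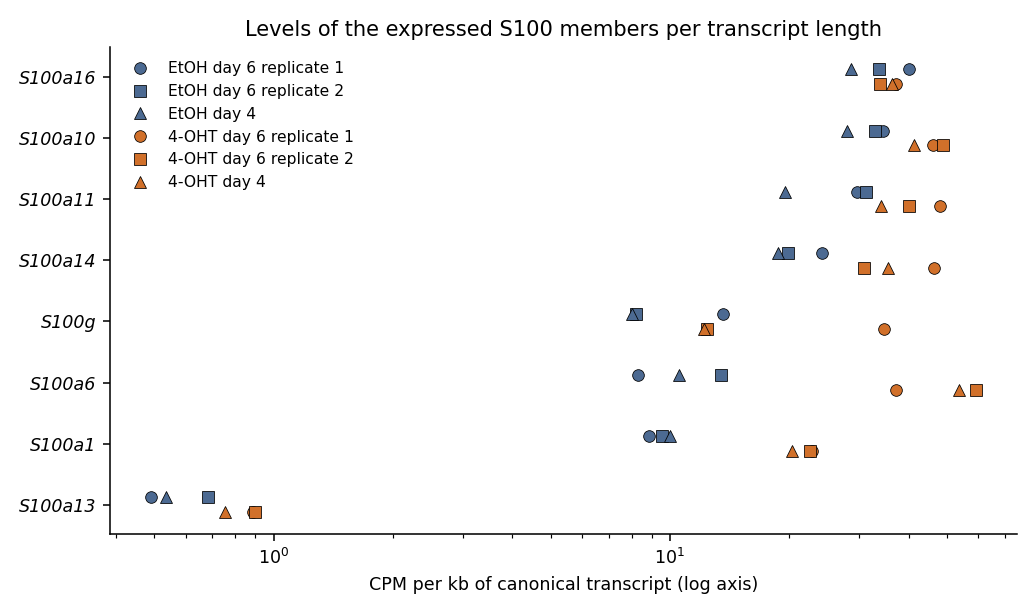
Level of the 8 expressed S100 members in each of the 6 libraries, as CPM per kb of canonical transcript on a log axis, ordered by the mean of the day 6 EtOH libraries. Blue points are EtOH and orange points 4-OHT libraries, and *S100a6* moves from near 10.9 to 48.2 CPM per kb at day 6 while *S100a16* stays between 28.6 and 40.0 CPM per kb in all libraries; *S100a4* is left out because it was at 0 in 5 libraries.

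The comparison of treatments at day 6 asked which members differed between 4-OHT and EtOH. *S100a6* and *S100a1* rose, *S100a14*, *S100a11*, *S100a10*, *S100a13* and *S100g* had higher means that did not pass the test, and *S100a16* had almost the same level in both. *S100a4* did not pass the filter on low counts. 2 of the 8 members tested were thus called higher, at a Benjamini-Hochberg adjusted p under 0.05 in edgeR's quasi-likelihood test, and so were 1.98% of all 14066 genes tested. 0 were called lower (0.171% of all genes), by edgeR, by DESeq2 or at an unadjusted p under 0.05. 6 were higher at an unadjusted p under 0.05, as were 7.34% of all genes. The log2 fold change was above 0 for 7 of the 8, with a median of 0.70, where 48.1% of all genes tested were above 0 and their median was -0.01. In 6 members both 4-OHT libraries were above both EtOH libraries, as were 20.4% of the genes tested. Because fewer cells of a type and less RNA per cell cannot be told apart in sorted bulk samples, these are differences in the RNA of the sorted population.

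*S100a6* (ENSMUSG00000001025), calcyclin, binds the ubiquitin-linked proteins CACYBP and SUGT1 as well as annexins. At day 6 it had 122 and 181 counts with EtOH and 625 and 861 counts with 4-OHT, or 6.46 and 10.5 CPM against 29.1 and 46.1 CPM. At day 4 it had 160 counts (8.20 CPM) with EtOH and 615 (41.7 CPM) with 4-OHT. All 3 libraries labelled 4-OHT lay above all 3 labelled EtOH. The day 6 fold change was 4.43, a log2 fold change of 2.15 (SE 0.30, 95% interval 1.47 to 2.82), with an adjusted p of 0.00675 (edgeR). It passed without any 1 of the 4 libraries, with log2 fold changes of 1.78 to 2.53 and adjusted p of 9.79e-06 to 0.0487.

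*S100a1* (ENSMUSG00000044080) encodes a protein best known from heart and skeletal muscle, where it acts on calcium release channels. It had 138 and 136 counts with EtOH and 406 and 349 with 4-OHT at day 6, or 7.31 and 7.88 CPM against 18.9 and 18.7 CPM. The day 4 libraries held 161 (8.25 CPM) and 248 (16.8 CPM) counts. The replicates of *S100a1* were close together, and all 3 libraries labelled 4-OHT lay above all 3 labelled EtOH, as for 11.1% of the genes tested over both days. Its day 6 log2 fold change was 1.30 (SE 0.23, 95% interval 0.78 to 1.83), with an adjusted p of 0.0208 (edgeR). The call was lost without EtOH replicate 1 (adjusted p 0.0816) and without 4-OHT replicate 1 (0.0541), at log2 fold changes of 1.25 and 1.29. *S100a13*, the gene that overlaps *S100a1*, is an escort of the growth factor FGF1 in its release from cells. It had 41 and 52 counts with EtOH and 84 and 74 with 4-OHT at day 6, and 46 and 49 at day 4. Its day 6 log2 fold change of 0.60 (95% interval -0.24 to 1.44, adjusted p 0.714) did not pass, and its interval overlaps that of *S100a1*.

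**Figure D2:**
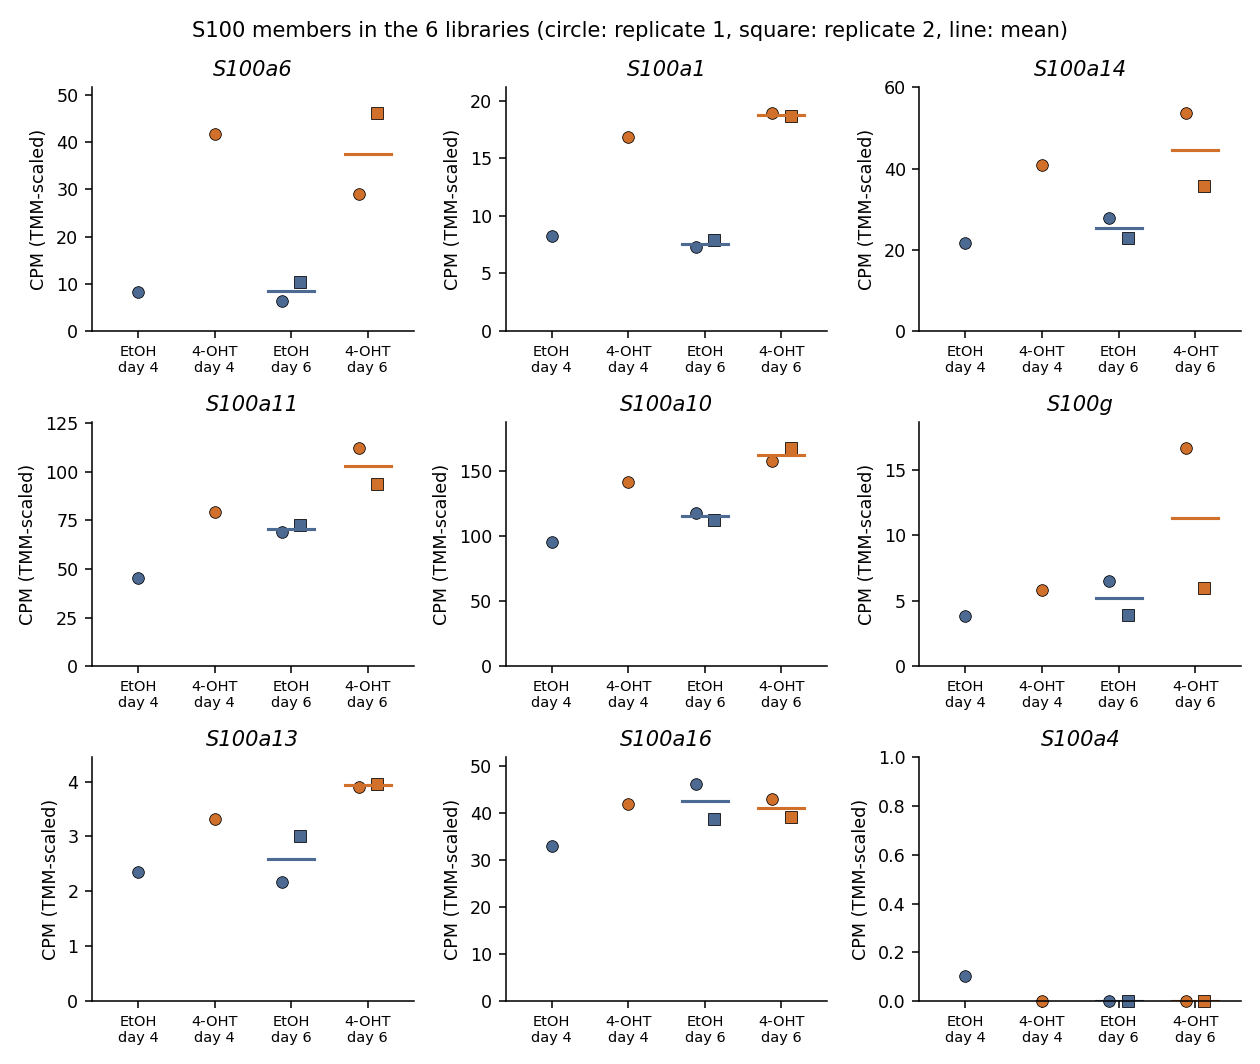
TMM-scaled CPM of the 9 S100 members in each library, with EtOH in blue and 4-OHT in orange, day 4 on the left and day 6 on the right of each panel, circles for replicate 1, squares for replicate 2 and a line at the mean of each day 6 pair; each axis starts at 0. *S100a6* and *S100a1* are higher in every 4-OHT library than in any EtOH library, the spread of *S100g* rests on 1 library at 16.7 CPM, and *S100a4* is at or near 0 throughout.

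*S100a10* and *S100a11* are the annexin partners of the family, of annexin A2 and annexin A1. *S100a10* had 118 and 112 CPM with EtOH and 157 and 167 CPM with 4-OHT at day 6, and 95.4 and 141 CPM at day 4. *S100a11* had 68.8 and 72.7 CPM with EtOH and 112 and 93.5 CPM with 4-OHT at day 6, and 45.5 and 79.1 CPM at day 4. The groups did not overlap for either gene, and the differences were small. Their day 6 log2 fold changes were 0.49 (95% interval 0.15 to 0.83) for *S100a10* and 0.53 (0.16 to 0.91) for *S100a11*, with adjusted p of 0.194 and 0.196 (edgeR), and the upper bounds of both lie below the lower bound of *S100a6*.

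*S100a14* and *S100a16* are epithelial members that lie side by side on the chromosome. *S100a14* had 27.9 and 22.9 CPM with EtOH and 53.6 and 35.6 CPM with 4-OHT at day 6, and 21.6 and 41.0 CPM at day 4. The groups of *S100a14* did not overlap, and its day 6 log2 fold change was 0.81 (95% interval 0.28 to 1.33, adjusted p 0.158 by edgeR). *S100a16* had 46.3 and 38.9 CPM with EtOH and 42.9 and 39.2 CPM with 4-OHT at day 6, and 33.1 and 42.0 CPM at day 4. The groups of *S100a16* overlapped. Its day 6 log2 fold change was -0.06, and the upper bound of its 95% interval, -0.47 to 0.36, lies below the lower bound of *S100a6*.

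*S100g* had 123 and 68 counts with EtOH and 358 and 111 with 4-OHT at day 6, or 6.51 and 3.94 CPM against 16.7 and 5.95 CPM, and 3.85 and 5.84 CPM at day 4. The groups overlapped, since 4-OHT replicate 2 lay below EtOH replicate 1. The day 6 log2 fold change of 1.11 (95% interval 0.07 to 2.14) had an adjusted p of 0.446 by the edgeR test. It was 1.67 with an adjusted p of 0.00333 without 4-OHT replicate 2, and 0.18 without 4-OHT replicate 1, so that its size rested on that 1 library. The same library had the highest summed level of 11 enterocyte genes (3928 CPM, with 3057 CPM in 4-OHT replicate 2) and of 6 Paneth cell genes (4905 CPM, with 2014 CPM in 4-OHT replicate 2), whose part in the *S100g* difference was not tested.

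The day 4 libraries, with 1 per treatment, asked whether the same members were already apart earlier. The log2 difference at day 4 was 2.33 for *S100a6*, 1.02 for *S100a1*, 0.92 for *S100a14* and 0.80 for *S100a11*. It was 0.59 for *S100g*, 0.57 for *S100a10*, 0.48 for *S100a13* and 0.34 for *S100a16*, so that 8 members were above 0, as were 49.9% of the 14060 genes tested over both days. *S100a4* had its 2 counts in the EtOH library. *S100a6* and *S100a1* were thus at least 2-fold higher, as were 5.6% of these genes. A test at day 4 has to borrow the spread of the day 6 replicates, as in an edgeR fit of all 6 libraries in 4 groups, and there 0 of the 8 members passed and 5 had an unadjusted p under 0.05, while 0.341% of all genes were called higher. In that edgeR fit *S100a6* had a log2 fold change of 2.35 (adjusted p 0.0701) and *S100a1* one of 1.03 (adjusted p 0.434). The difference between the days was tested in a model of all 6 libraries with a treatment by day term, which assumes that the single day 4 libraries vary like the day 6 replicates. In that model 0 of the 8 members differed between the days by the edgeR quasi-likelihood test, 0 had an unadjusted p under 0.05 and 0 were called by DESeq2. The smallest unadjusted p of a member was 0.241. Of all genes 0.0% were called higher or lower by edgeR, 1.67% had an unadjusted p under 0.05, and DESeq2 called 6. For *S100a6* the difference between the days was 0.20 on the log2 scale with a 95% interval of -0.93 to 1.33.

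Over both days, with 3 libraries labelled 4-OHT, 3 labelled EtOH and day as a term, 5 members rose. They were *S100a6*, *S100a1*, *S100a14*, *S100a11* and *S100a10*, 5 of the 8 tested, where 3.36% of the 14060 genes tested were called higher and 0.626% lower. No member was called lower or had a lower level at an unadjusted p under 0.05. The median log2 fold change of the 8 was 0.74, and that of all genes tested was -0.01. The log2 fold change was 2.22 for *S100a6* (95% interval 1.69 to 2.74, adjusted p 0.000881), 1.21 for *S100a1* (0.84 to 1.58, 0.0034) and 0.85 for *S100a14* (0.46 to 1.24, 0.0262), all by the edgeR quasi-likelihood test. It was 0.62 for *S100a11* (0.35 to 0.89, adjusted p 0.0199) and 0.52 for *S100a10* (0.29 to 0.75, adjusted p 0.0208) in the same edgeR fit. *S100g* (0.95, adjusted p 0.263), *S100a13* (0.57, adjusted p 0.373) and *S100a16* (0.08, 95% interval -0.24 to 0.39) did not pass. All 3 libraries labelled 4-OHT lay above all 3 labelled EtOH in 6 members, the 5 that rose and *S100a13*, as they did for 11.1% of the genes tested.

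*S100a6* and *S100a1* passed without any 1 of the 6 libraries. The calls of *S100a10*, *S100a11* and *S100a14* were lost without day 6 4-OHT replicate 1 (adjusted p 0.0763, 0.117 and 0.127). They were also lost without the day 4 4-OHT library (0.206, 0.203 and 0.154) or the day 4 EtOH library (0.204, 0.198 and 0.151). With day as a term either of these leaves only the day 6 comparison, and the log2 fold changes were then 0.49, 0.54 and 0.81 without the day 4 4-OHT library and 0.50, 0.54 and 0.81 without the day 4 EtOH library. *S100a10* also lost its call without day 6 4-OHT replicate 2 (0.114), and *S100a14* without day 6 EtOH replicate 2 (0.0532). The plot of member differences sets these values and their intervals side by side.

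**Figure D3:**
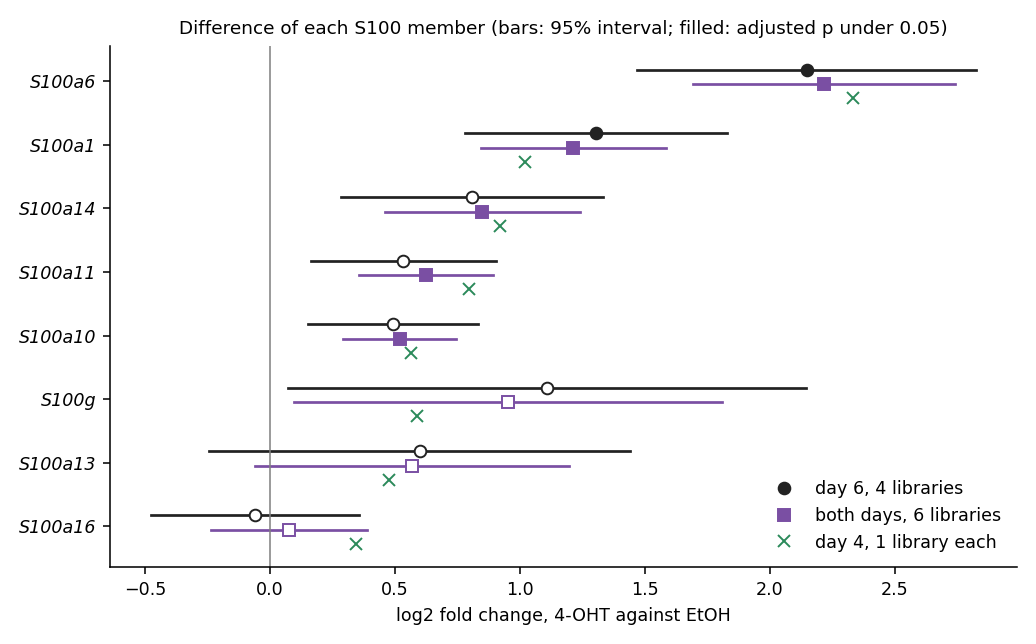
Log2 fold change of 4-OHT against EtOH for the 8 S100 members tested, with 95% intervals at day 6 (black circles, 4 libraries) and over both days (purple squares, 6 libraries), filled where the adjusted p was under 0.05, and the day 4 difference of 1 library from 1 library as green crosses. *S100a6* is farthest from 0 in all 3 readings, at 2.15, 2.22 and 2.33, and *S100a16* is nearest to 0 at day 6 and over both days.

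The make-up of the family's reads moved with these differences. The 18 S100 genes together had 284, 273 and 219 CPM in the EtOH libraries (day 6 replicates 1 and 2, then day 4) and 436, 412 and 372 CPM in those labelled 4-OHT. *S100a6* made up 2.28%, 3.85% and 3.75% of the family's counts with EtOH and 6.66%, 11.2% and 11.2% with 4-OHT. *S100a16* had a lower share with 4-OHT, 16.3%, 14.3% and 15.1% against 9.84%, 9.51% and 11.3%, at a log2 fold change in level of 0.08 over both days that did not pass, since a share also falls when other members rise. *S100a10* gave the largest number of counts in every library, 36.0% to 43.6% of them, with 41.5%, 41.2% and 43.6% against 36.0%, 40.5% and 38.0%. Its share thus lay lower in each 4-OHT library than in any EtOH library although its level was higher.

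Which genes move with *S100a6* was measured as the root-mean-square difference in log2 CPM over the 6 libraries after each gene was centred on its own mean, so that a value near 0 means the same rises and falls of the same size. It was computed for 10119 protein-coding genes averaging 5 CPM or more and is a description with no test, since the 6 libraries share treatments and days. The median gene differed by 1.15, and a gene that did not vary at all would differ by 1.14. The 4 nearest genes were *Tc2n* (0.19), which encodes a C2-domain protein, *Anxa3* (0.23), an annexin, *Vill* (0.24), a relative of the actin-binding villin, and *Pdlim2* (0.25), a PDZ-LIM protein of the cytoskeleton. *Tc2n* had 16.3 and 33.7 CPM with EtOH and 104 and 156 CPM with 4-OHT at day 6, and 30.5 and 146 CPM at day 4.

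Within the family *S100a1* was nearest to *S100a6*, at 0.58 and rank 95 of the 10119 genes. *S100a14* (0.83, rank 343), *S100a11* (0.90, rank 553) and *S100a10* (0.90, rank 557) followed, and *S100g* (1.06, rank 2212) and *S100a16* (1.13, rank 4116) were close to the value of a gene that does not vary. The measure counts size as well as direction, so small rises lie far from *S100a6*. *S100g* did vary, but not as *S100a6* did. In day 6 4-OHT replicates 1 and 2 it was 1.41 and -0.06 from its own mean, where *S100a6* was 0.71 and 1.37. *S100a13*, at 2.17 to 3.96 CPM, and *S100a4* were below the cut on mean level and were not ranked.

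**Figure D4:**
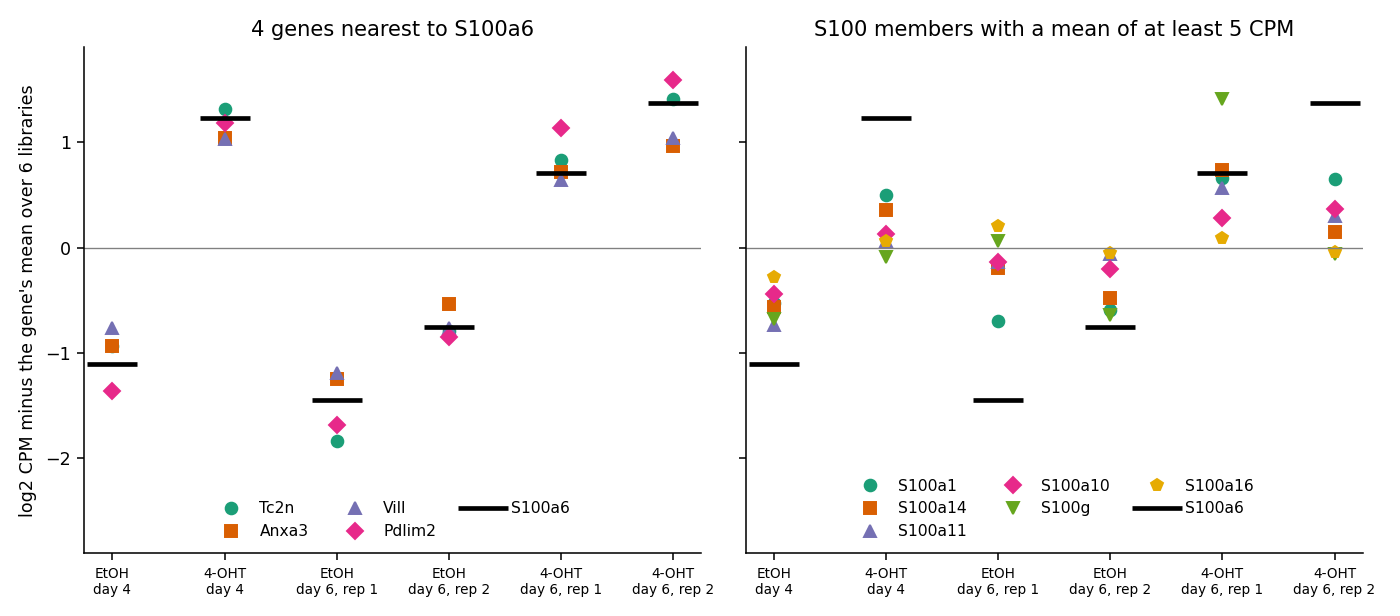
Log2 CPM of each gene minus its own mean over the 6 libraries, for the 4 genes nearest to *S100a6* (left) and for the S100 members with a mean of at least 5 CPM (right), with *S100a6* as a black bar in each library. The 4 nearest genes lie close to the bars in every library, and the S100 members mostly lie between the bars and 0.

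Of the other 9 S100 genes, *S100a8* and *S100a7l2* had no count in any library, and none had more than 28 counts in a library. *S100a5*, which lies next to *S100a6*, had 2 and 4 counts with EtOH and 28 and 12 with 4-OHT at day 6, and 4 in each day 4 library. It was the 1 other S100 gene abundant enough to test at day 6, and its log2 fold change of 2.50 (95% interval 0.70 to 4.30) had an adjusted p of 0.222 (edgeR). *S100a7a* had 0 and 0 counts with EtOH and 7 and 7 with 4-OHT at day 6, and 1 and 2 at day 4. *S100b*, a glial gene, had 4 and 1 counts with EtOH and 9 and 13 with 4-OHT at day 6, and 0 and 4 at day 4. These counts are too low to say more than that the day 6 4-OHT libraries held the largest ones. *S100a2*, *S100a3*, *S100a9* and *S100z* had between 0 and 4 counts in each library.

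Among 25 genes of S100 partners and receptors, 21 were abundant enough to test at day 6, and 2 rose, *Anxa1* and *Plat*, with a median log2 fold change of 0.24. The share called higher among all genes tested was 1.98%. 0 fell by edgeR, and 1 was lower at an unadjusted p under 0.05. DESeq2 called 5 of the 21 and limma-voom 2. *Anxa1*, the partner of S100A11, had 5.19 and 6.78 CPM with EtOH and 18.4 and 17.0 CPM with 4-OHT, a log2 fold change of 1.56 (adjusted p 0.0139 by edgeR). *Plat*, tissue plasminogen activator, which S100A10 binds at the cell surface, had a log2 fold change of 1.59 (adjusted p 0.0107). *Anxa2*, the partner of S100A10, had 370 and 323 CPM with EtOH and 494 and 578 CPM with 4-OHT, and its log2 fold change was 0.62 (adjusted p 0.155). *Ahnak*, a scaffold of the annexin A2 and S100A10 complex, varied between replicates, with 36.6 and 94.7 CPM against 118 and 150 CPM, and did not pass (adjusted p 0.275).

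Over both days 4 of the 20 partner genes tested rose and 1 fell, where 3.36% of all genes tested were called higher and 0.626% lower. The 4 were *Anxa1* (adjusted p 0.00541), *Plat* (0.00146), *Anxa5* (0.00477) and *Anxa2* (0.0209), all by edgeR, and the log2 fold change of *Anxa2* was 0.62, beside the 0.52 of *S100a10* on the same scale. The 1 that fell was *Fgf1* (-1.47, adjusted p 0.0271 by edgeR), the growth factor that S100A13 escorts, and *Anxa5* and *Fgf1* are named after their values were seen. *Cacybp* and *Sugt1*, the partners of S100A6, had log2 fold changes of -0.09 and -0.03 at day 6. *Ager*, the receptor RAGE, was at 2.41 to 3.91 CPM in all libraries, and *Tlr4* at no more than 0.744 CPM.

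Other EF-hand proteins gave a comparison with calcium-binding genes outside the family. Of 30 such genes 24 were tested at day 6, and 3 rose by edgeR, with a median log2 fold change of 0.03. Of all genes tested at day 6, 1.98% were called higher. 0 fell, also at an unadjusted p under 0.05, and DESeq2 and limma-voom each called 3. *Chp2*, a partner of sodium-proton exchangers, had 6.25 and 7.36 CPM with EtOH and 40.7 and 29.3 CPM with 4-OHT, a log2 fold change of 2.36 (adjusted p 0.00154 by edgeR). *Capn2*, a calcium-dependent protease, followed with 1.69 (adjusted p 0.00933), and *Sri*, sorcin, with 1.15 (adjusted p 0.0074).

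For *S100g*, 15 genes of calcium absorption and vitamin D were read alongside. 9 were tested at day 6, and 0 passed by edgeR or limma-voom and 1 by DESeq2, with 3 higher at an unadjusted p under 0.05 and a median log2 fold change of 0.11. Among all genes tested, 7.34% were higher at an unadjusted p under 0.05 by edgeR. *Trpv6*, the entry channel for calcium in the gut, was at no more than 0.214 CPM in any library. *Vdr*, the vitamin D receptor, had 270 and 275 CPM with EtOH and 285 and 228 CPM with 4-OHT at day 6, and 296 and 174 CPM at day 4. The level of *Vdr* overlapped between the treatments at day 6 and was lower with 4-OHT at day 4.

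Between the outermost chromosome 3 members lie 115 other genes, among them 7 S100 genes and the skin-barrier genes of the epidermal differentiation complex. 8 of these were tested at day 6, with a median log2 fold change of 0.61, and 2 rose, *Sprr1a* and *Sprr2a3*, which encode small proline-rich proteins of barrier epithelia. Among all genes tested, 1.98% were called higher. *Sprr1a* had 10.8 and 11.4 CPM with EtOH and 57.7 and 46.5 CPM with 4-OHT, a log2 fold change of 2.23 (adjusted p 0.000787 by edgeR). *Sprr2a3* had a log2 fold change of 0.74 (adjusted p 0.0435), but its near-identical copies *Sprr2a1* and *Sprr2a2* make its counts uncertain.

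Markers of other cell states differed between the same libraries. For comparison, 48.1% of all genes tested at day 6 had a log2 fold change above 0 and 1.98% were called higher. All 11 enterocyte genes listed were higher at day 6 and 9 passed, and their summed level was 921 to 1325 CPM in the EtOH libraries and 1175 to 3928 CPM in those labelled 4-OHT. Of 10 regenerative or fetal-like genes 9 were tested, all 9 were higher and 7 passed, with summed levels of 192 to 306 CPM with EtOH and 385 to 576 CPM with 4-OHT. *Anxa1* and *Sprr1a* are in this list too. The summed level of 8 stem cell genes was 4867 to 5842 CPM with EtOH and 3491 to 4084 CPM with 4-OHT, and *Olfm4* was the 1 of them that passed, as a fall. The part of these shifts in the S100 differences was not tested. At day 4 the summed enterocyte level was 921 CPM with EtOH and 1175 CPM with 4-OHT, both below the 1309 and 1325 CPM of the day 6 EtOH libraries, and the *S100a6* levels lay within the day 6 range of the same treatment. The summed level of the 9 leukocyte genes was 5.35, 8.23 and 9.69 CPM with EtOH and 13.3, 12.9 and 11.1 CPM with 4-OHT, and *Ly6g*, which rose, gave at most 6.09 CPM of it.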

How the data were processed

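Read counts per gene of 6 libraries were used. Per the labels' protocols, RNA was selected with oligo-dT beads, fragmented and primed with random hexamers, and the submitters' processing notes name STAR and the build mm39. The authors deposited whole-number counts for 56884 genes after 4 summary lines of reads assigned to no gene, which held 19.3% to 26.7% of entries and stayed out of library sizes and tests. That share was 25.0% and 26.7% in the day 4 libraries and 19.3% to 21.0% in the day 6 libraries. Genes with counts numbered 24195 and 26521 at day 4 and 19522 to 20622 at day 6. The part of this difference in the comparisons that use both days was not tested. The strand setting and annotation release are not given in the sources used here. Symbols, positions and lengths came from GENCODE M39 (GRCm39), which matched 56323 identifiers.

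Counts were tested with the quasi-likelihood test of edgeR 4.0.16 in R 4.3.3, with TMM scaling, filterByExpr (minimum count 10) and Benjamini-Hochberg adjustment over all genes tested, at 0.05. The day 6 fit used 4 libraries, and the fit over both days used 6 with day as a term. CPM are TMM-scaled, and day 4 log2 differences use a prior count of 2. Standard errors and intervals were derived from each fold change and its F statistic. Day 6 replicates differed by more than sampling noise (chi-square per degree of freedom 33.3 with EtOH and 22.9 with 4-OHT), so both were kept. The fits were tested on simulated data. The members, gene lists, motifs and tests were chosen with earlier results of these data known. All members were named, and from each list up to 5 genes that passed at day 6, with *Anxa1*, *Anxa2*, *Ahnak*, *Trpv6* and *Vdr* always named. Of the 5 genes nearest to *S100a6* that the rule names, 1 is not reported here. Alternatives were median-of-ratios scaling, other filters, DESeq2 1.42.0, limma-voom (limma 3.58.1), a replicate block, other sets of libraries and, added later, a robust spread estimate.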

Additional observations from a re-analysis of the deposited data

How the results depend on the processing

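*S100a6* passed at day 6 and over both days under every alternative run. At day 6 the number of members called, 2 in the main test, was 4 without a low-count filter and 1 to 4 when 1 library was left out, and the added members were *S100a14* and *S100g*. With a block on replicate number it was also 4, with adjusted p of 0.00458 for *S100a14* and 0.0191 for *S100g*. The labels do not say that the numbers pair the libraries, and the deviations of same-numbered libraries correlated at 0.266 over genes. All genes called at day 6, 302 in the main test, numbered 725 without a filter, 505 with DESeq2, 816 with the replicate block and 149 to 462 when 1 library was left out. Over both days the members called, 5 in the main test, were 3 without a day term, 6 without a low-count filter (*S100g* added, adjusted p 0.00608) and 2 to 5 when 1 library was left out, and all genes called, 560, were 1150 without a filter, 856 with DESeq2, 333 without a day term and 306 to 620 when 1 library was left out. *S100a16* changed sign without passing: at day 6 it was 0.076 without EtOH replicate 1 and 0.01 without 4-OHT replicate 2, and over both days -0.057 without the day 4 4-OHT library and -0.05 without the day 4 EtOH library. Its range when 1 library was left out was -0.18 to 0.076 at day 6 and -0.057 to 0.19 over both days. With 3 libraries left at day 6, the lone library is assumed to vary like the other arm. Over the day 6 libraries alone, 1 of the 5 genes nearest to *S100a6*, *Tc2n*, was again among the nearest 5. Where a setting changed a count, the cause was not tested. *S100a4* and 8 of the 9 S100 genes that are no members had too few counts to test at day 6.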
